A study of Homo sapiens with 64 samples.

Results

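The 37 lysosome and autophagy genes described here are a listed set of regulators, lysosomal proteins and autophagy proteins, found by symbol among the 60649 genes of a count table from 4 lung cancer cell lines. All 37 were found, 1 of them (TMEM55A) under its newer symbol PIP4P2, and all 37 passed the filter on low counts in every fit. They comprise 3 transcription factors, 6 membrane proteins and transporters, 12 hydrolases and their luminal partners, 5 genes of the proton pump, 3 genes of autophagosome cargo and coat, and 8 genes of autophagy initiation and elongation.

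Lysosomes are acidic organelles in which hydrolases break down proteins, lipids and sugars, and the vacuolar proton pump (V-ATPase) keeps them acidic. In autophagy a double membrane closes around cytoplasm and delivers it to the lysosome. TFEB, TFE3 and MITF are related transcription factors that bind E-box elements in the promoters of many of these genes, and active mTORC1 on the lysosome keeps them out of the nucleus. MYC with its partner MAX binds the same E-box core. RNA levels measure neither lysosomal activity nor the flux through autophagy.

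RNA was sequenced from 4 established non-small cell lung cancer lines, H1703, H460, H838 and H1755, grown in RPMI with 10% serum. Cells of each line were given for 24 h either MYCi975 at 5 µM, an inhibitor of the MYC transcription factor, or TMP195 at 25 µM, an inhibitor of class IIa histone deacetylases, or both compounds, or DMSO as vehicle. Each of the 16 groups has 4 libraries, 64 in all, with 17352066 to 34236552 counts per library. The labels do not say whether replicates came from separate cultures, so p-values measure the spread between these libraries. A level is given as CPM (the count scaled to a common library total) and a fold change as log2 with its standard error (SE). A gene was called when its p, adjusted by Benjamini-Hochberg over all genes tested in edgeR's quasi-likelihood test, was below 0.05. In RNA from a whole culture, fewer expressing cells and less RNA per cell cannot be told apart.

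The libraries were put into 4 sets by replicate number, counts for EEF1G and the form of their names. The 16 libraries numbered replicate 4 form 1 set, with 5.12% to 10.7% of counts from mitochondrial ribosomal RNA. The 36 libraries of the first set had 10.1% to 19.1%, and these ranges overlap. EEF1G, which overlaps another gene, has counts in 7 H460 libraries and 0 in all others, and CTSD was 2.12 and ATG9A 0.91 log2 units higher in them than in the other H460 libraries of the same treatments. A further 5 libraries, grouped by the form of their names, had 7.39% to 10.2% of counts from mitochondrial ribosomal RNA, within the replicate 4 range. They are TMP195 replicates 1 to 3 and MYCi975 replicate 3 of H838 and combination replicate 2 of H1703. Blood and endothelial markers summed to at most 8.03 CPM in any library, and epithelial markers summed to 31.2 to 60.2 CPM in H1703 libraries, against 446 CPM or more in the other lines. One TMP195 library of H838 carries a different line tag in 2 of its labels and was grouped by its title.

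Promoters of members with the E-box core CACGTG are shown first, because they hold the element that the 3 transcription factors and MYC can bind. In the RefSeq windows of 300 bases (250 before to 50 after the start site, GRCh38.p14), the core occurred in 7 of the 27 members with a window (35 windows, since some members have several), against 7.256% of all 35116 windows. The longer form GTCACGTG, which contains the core and was read on both strands, occurred in 6 of the 27, against 2.403% of all windows. A member was counted if any of its windows matched, whereas these shares are of single windows, so the measures differ. The 7 members are NEU1, GAA, CTSD, CTSA, LAMP1, ATP6V0D1 and MCOLN1, with 6 cores in the window of LAMP1. A match describes the letters only. The windows of the 4 members with the smallest adjusted p among those with the core follow, 5′ to 3′, with the core in capitals. They are NEU1 at chr6:31862772-31863071 on the minus strand, GAA at chr17:80101331-80101630 on the plus strand, CTSD at chr11:1763878-1764177 on the minus strand and CTSA at chr20:45891085-45891384 on the plus strand.
NEU1: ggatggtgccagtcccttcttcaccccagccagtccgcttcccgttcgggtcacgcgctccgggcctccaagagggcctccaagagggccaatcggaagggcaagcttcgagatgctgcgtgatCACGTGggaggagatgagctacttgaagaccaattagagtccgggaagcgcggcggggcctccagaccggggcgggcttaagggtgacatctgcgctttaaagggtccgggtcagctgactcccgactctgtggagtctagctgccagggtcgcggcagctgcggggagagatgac
GAA: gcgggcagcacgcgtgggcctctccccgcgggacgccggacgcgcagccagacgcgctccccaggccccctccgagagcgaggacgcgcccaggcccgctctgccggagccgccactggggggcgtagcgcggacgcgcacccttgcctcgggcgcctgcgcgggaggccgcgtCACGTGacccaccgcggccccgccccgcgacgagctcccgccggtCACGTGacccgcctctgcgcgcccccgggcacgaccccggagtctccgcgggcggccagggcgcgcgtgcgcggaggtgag
CTSD: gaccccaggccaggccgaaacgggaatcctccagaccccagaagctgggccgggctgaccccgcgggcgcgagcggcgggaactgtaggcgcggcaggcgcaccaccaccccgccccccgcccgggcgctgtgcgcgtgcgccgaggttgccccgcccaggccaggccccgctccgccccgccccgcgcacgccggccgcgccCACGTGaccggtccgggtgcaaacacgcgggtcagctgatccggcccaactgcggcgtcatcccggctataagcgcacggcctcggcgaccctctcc
CTSA: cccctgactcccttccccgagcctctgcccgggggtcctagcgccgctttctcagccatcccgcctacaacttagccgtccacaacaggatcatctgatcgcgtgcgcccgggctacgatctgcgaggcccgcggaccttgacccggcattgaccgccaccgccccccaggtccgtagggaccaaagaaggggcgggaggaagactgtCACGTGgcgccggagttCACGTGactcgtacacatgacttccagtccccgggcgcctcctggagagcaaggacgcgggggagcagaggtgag

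Across the 12 comparisons of a treatment with vehicle, 51 of the 72 member calls were in H1703 (70.8%), close to that line's share of the calls over all genes (12111 of 17144, 70.6%). At least 1 call was made for 28 of the 37 members, against 49.6% of the genes tested in all 4 lines. In H1703, 24 members were called with at least 1 treatment, against 39.2% of all genes, 18 of them higher and 6 lower, against 20.3% and 18.8%. With all 3 treatments 12 members were higher and 1 was lower, against 3.86% and 2.2% of all genes tested. The 3 comparisons within a line share their vehicle libraries.

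**Figure D1:**
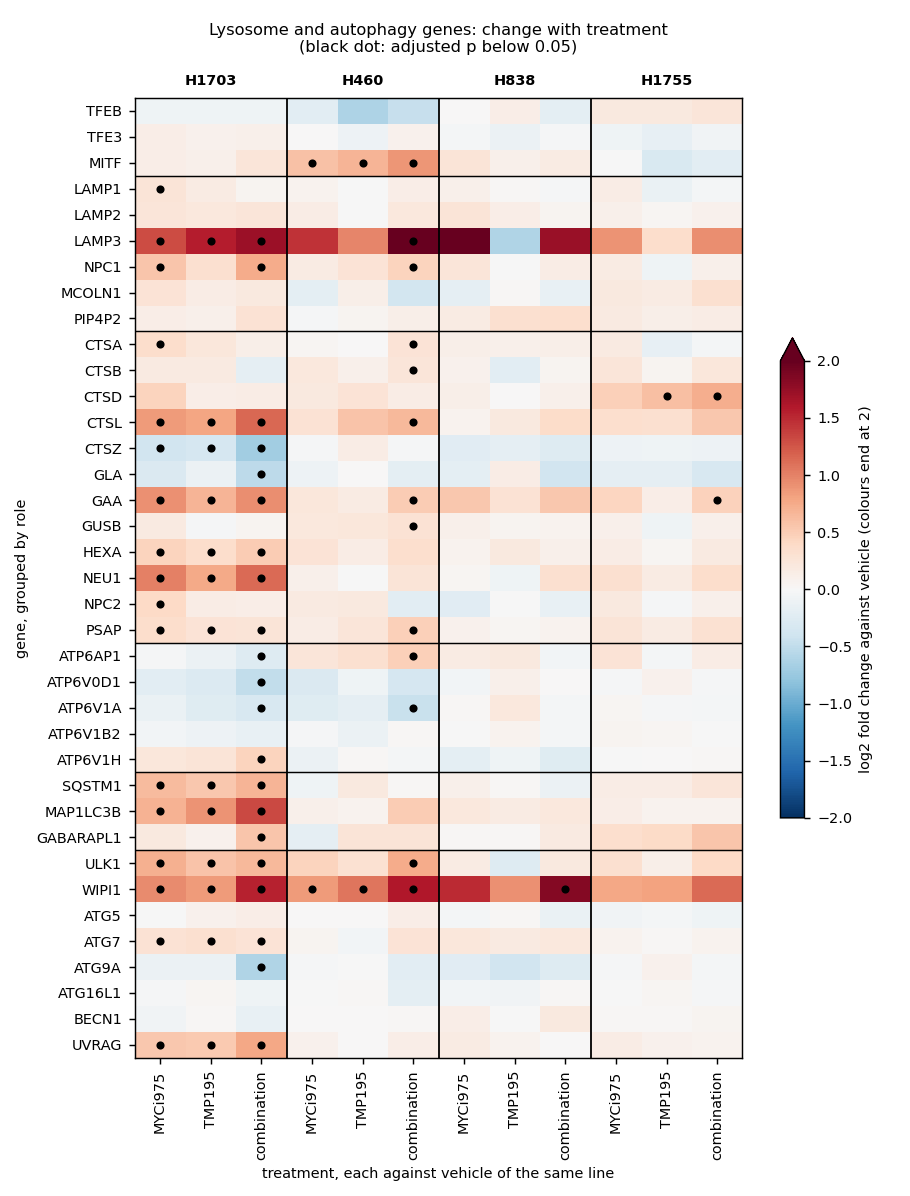
Log2 fold change of the 37 genes (down the page, grouped by role) with each treatment against vehicle in H1703, H460, H838 and H1755 (across), red for higher and blue for lower, with a black dot where the adjusted p is below 0.05. Of the 72 dots 51 stand in the H1703 columns (70.8%, against 70.6% of the calls over all genes). CTSD and ATG9A in the H460 columns include libraries with and without counts for EEF1G.

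With MYCi975 in H1703, 17 members were called, 16 higher and 1 lower, against 10.2% of all genes (6.04% higher and 4.12% lower). With TMP195, 13 were called, 12 higher and 1 lower, against 9.65% of all genes (6.07% higher and 3.57% lower). With the combination, 21 were called, 15 higher and 6 lower, against 38.3% of all genes (19.9% higher and 18.5% lower). The median log2 fold change of the members was 0.241 with MYCi975, 0.151 with TMP195 and 0.194 with the combination, and over all genes it was 0.014, 0.006 and 0.015. In the first library set alone 17, 17 and 21 members were called, against 11.4%, 17.5% and 36.4% of all genes. That set holds replicates 1 and 3 of the combination and replicates 1 to 3 of the other H1703 groups. Without vehicle replicate 2 the count for MYCi975 was 11.

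The levels of the 3 transcription factors did not pass the test in H1703. TFEB was at 11.1, 11.2, 12.8 and 9.03 CPM with MYCi975, 13.2, 10.6, 10.8 and 9.13 CPM with TMP195, 12.4, 10.2, 11.4 and 10.3 CPM with the combination and 12.7, 12.3, 11.0 and 10.4 CPM with vehicle. TFE3 was at 51.2, 48.0, 49.1 and 45.9 CPM with MYCi975, 52.3, 46.7, 44.3 and 43.2 CPM with TMP195, 52.5, 43.7, 45.7 and 48.4 CPM with the combination and 49.99, 42.8, 44.7 and 38.9 CPM with vehicle. The 4 groups of both genes overlap, and their log2 fold changes lay between -0.09 and 0.13. MITF was at 7.68, 8.24, 11.98 and 11.4 CPM with MYCi975, 8.26, 9.71, 11.0 and 9.56 CPM with TMP195, 8.66, 9.95, 11.7 and 12.3 CPM with the combination and 6.79, 8.07, 13.5 and 7.36 CPM with vehicle, with a combination log2 fold change of 0.24 ± 0.20 (SE). Vehicle replicate 3 was its highest library.

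Among membrane proteins, LAMP3 and NPC1 rose. LAMP3, a lysosome-associated membrane glycoprotein, was at 36.1, 33.3, 33.2 and 52.1 CPM with MYCi975, 42.2, 42.9, 42.5 and 58.4 CPM with TMP195, 50.6, 56.6, 52.5 and 47.8 CPM with the combination and 16.9, 14.1, 15.2 and 16.2 CPM with vehicle. Every treated library lay above every vehicle library, and replicate 4 was the highest with each single agent. Its log2 fold changes were 1.30 ± 0.14, adjusted p = 4.43e-05 with MYCi975, 1.58 ± 0.14, adjusted p = 2.37e-06 with TMP195 and 1.72 ± 0.14, adjusted p = 4e-07 with the combination. NPC1, which exports cholesterol from the lysosome, was at 127, 111, 108 and 149 CPM with the combination and 77.4, 68.2, 64.3 and 84.5 CPM with vehicle, without overlap (0.74 ± 0.17, adjusted p = 0.00273). With MYCi975 it was at 98.9, 87.8, 80.4 and 167 CPM, where replicate 4 stands far above the rest, and the call (0.55 ± 0.17, adjusted p = 0.049) fell to a log2 fold change of 0.27 without that library, which was not called. It was not called either without MYCi975 replicate 1 or vehicle replicates 1, 2 or 3. LAMP1, an abundant glycoprotein of the lysosomal membrane, was called with MYCi975 (0.25 ± 0.08, adjusted p = 0.0416) at 263, 249.8, 249.6 and 217 CPM, against 219.6, 204, 195.04 and 200.5 CPM with vehicle. The groups overlap by 1 library, and the call held in 1 of the 8 fits that left out a library, that without MYCi975 replicate 4, with log2 fold changes of 0.22 to 0.31. LAMP2, the calcium channel MCOLN1 and the phosphatase PIP4P2 were not called, with log2 fold changes of 0.11 to 0.29 over the 3 treatments.

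Hydrolases moved in both directions in H1703. CTSL, a cysteine protease (cathepsin L), was at 63.3, 59.4, 72.0 and 91.8 CPM with MYCi975, 69.6, 56.3, 71.5 and 76.2 CPM with TMP195, 88.5, 82.8, 92.9 and 88.4 CPM with the combination and 39.5, 38.9, 41.0 and 38.2 CPM with vehicle. NEU1, the lysosomal sialidase, was at 17.4, 18.3, 15.7 and 25.9 CPM with MYCi975, 17.4, 17.8, 13.3 and 16.1 CPM with TMP195, 24.8, 20.2, 18.8 and 21.4 CPM with the combination and 10.0, 9.47, 9.05 and 9.66 CPM with vehicle. Every treated library of both genes lay above every vehicle library, and the combination gave 1.15 ± 0.12, adjusted p = 2.3e-06 for CTSL and 1.14 ± 0.14, adjusted p = 1.01e-05 for NEU1. CTSZ, another cathepsin, was at 45.01, 45.5, 47.7 and 36.5 CPM with MYCi975, 44.4, 48.4, 44.98 and 40.5 CPM with TMP195, 37.8, 35.9, 34.1 and 33.3 CPM with the combination and 57.8, 59.9, 57.4 and 51.0 CPM with vehicle. Every treated library lay below every vehicle library, and CTSZ fell by 0.38 with MYCi975, by 0.34 with TMP195 and by 0.70 with the combination on the log2 scale (adjusted p = 0.0148, 0.026 and 2.29e-05). The call with TMP195 was lost without TMP195 replicate 1, 3 or 4 or vehicle replicate 1, 2 or 3 and that with MYCi975 without vehicle replicate 2, with log2 fold changes of -0.39 to -0.30 and -0.43 to -0.29 over these fits. GAA, which degrades glycogen, rose with the combination to 18.9, 19.4, 21.4 and 22.2 CPM, against 9.22, 11.6, 10.6 and 11.1 CPM with vehicle (0.93 ± 0.14, adjusted p = 7.17e-05), and was called higher with both single agents too. HEXA, a subunit of the enzyme that degrades gangliosides, and PSAP, the precursor of lipid-binding saposins, were higher with all 3 treatments, with log2 fold changes of 0.25 to 0.51. CTSA and NPC2 were called with MYCi975 alone among the 3 (0.35 and 0.40). GLA, alpha-galactosidase A, was called with the combination alone and lower (-0.52 ± 0.10, adjusted p = 0.000584). CTSB, CTSD and GUSB were not called in H1703.

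With the single agents in H1703 the log2 fold changes of the 5 V-ATPase genes ran from -0.27 to 0.26. They did not pass the threshold, where MYCi975 called 10.2% and TMP195 9.65% of all genes. With the combination 3 were lower and 1 higher, against 18.5% and 19.9% of all genes. Of the 11 other V-ATPase subunits tested, 2 were higher and 2 lower with the combination. ATP6V1A, the catalytic subunit of the cytosolic sector, was at 39.5, 47.8, 40.6 and 36.9 CPM with the combination and 51.3, 48.7, 46.7 and 55.9 CPM with vehicle (-0.31 ± 0.09, adjusted p = 0.00921), and replicate 2 of the combination overlaps vehicle. ATP6V0D1, in the membrane sector, was at 11.5, 11.7, 12.8 and 8.78 CPM with the combination and 16.5, 16.01, 16.4 and 13.6 CPM with vehicle, without overlap (-0.50 ± 0.17, adjusted p = 0.0263). Its call was lost without combination replicate 4 or vehicle replicate 1, 2 or 3, with log2 fold changes of -0.57 to -0.40. The third lower gene was ATP6AP1, an accessory subunit (-0.26 ± 0.09, adjusted p = 0.035). ATP6V1H, which regulates the cytosolic sector, was at 25.9, 23.6, 27.8 and 23.2 CPM with the combination and 19.6, 17.7, 17.3 and 18.5 CPM with vehicle (0.44 ± 0.09, adjusted p = 0.000591), and all 4 combination libraries lay above vehicle. ATP6V1B2 was not called.

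All 3 genes of cargo and coat rose with the combination in H1703. SQSTM1 (p62), a receptor that ties ubiquitinated cargo to the autophagosome, was at 1116, 1314, 1371 and 1542 CPM with MYCi975, 1087, 1318, 1304 and 1279 CPM with TMP195, 1237, 1579, 1411 and 1335 CPM with the combination and 751, 894, 927 and 875 CPM with vehicle. MAP1LC3B (LC3B), which is coupled to lipid on the autophagosome membrane, was at 87.8, 79.1, 75.0 and 159.9 CPM with MYCi975, 120.1, 96.7, 101 and 142 CPM with TMP195, 156, 156, 152 and 162 CPM with the combination and 64.4, 56.5, 61.9 and 64.2 CPM with vehicle. Every treated library of both genes lay above vehicle, and replicate 4 of MYCi975, a library of the replicate 4 set, reached the combination level of MAP1LC3B. The log2 fold changes with the combination were 0.67 ± 0.11, adjusted p = 0.000108 for SQSTM1 and 1.33 ± 0.18, adjusted p = 2.7e-05 for MAP1LC3B. With MYCi975 the rise of MAP1LC3B (0.69 ± 0.18, adjusted p = 0.0186) was 0.38 without replicate 4, still called, and it was not called without vehicle replicate 2. In the first library set alone it was 0.40 ± 0.08 (adjusted p = 0.00484). GABARAPL1, a relative of LC3B, was at 36.5, 45.3, 49.7 and 50.2 CPM with MYCi975, 37.7, 48.8, 48.2 and 33.8 CPM with TMP195, 48.4, 61.8, 67.8 and 56.8 CPM with the combination and 35.5, 48.3, 41.9 and 32.2 CPM with vehicle. It was called with the combination alone (0.56 ± 0.15, adjusted p = 0.00762), where its lowest library lay just above the highest vehicle library.

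Of the genes of initiation and elongation, WIPI1, ULK1, UVRAG and ATG7 were higher with all 3 treatments in H1703. WIPI1, which binds phosphatidylinositol 3-phosphate on the forming membrane, was at 38.03, 35.0, 32.6 and 56.8 CPM with MYCi975, 39.4, 35.8, 34.8 and 40.9 CPM with TMP195, 67.8, 62.1, 53.8 and 63.3 CPM with the combination and 19.7, 22.8, 20.7 and 20.5 CPM with vehicle. ULK1, the kinase that starts autophagy, was at 60.3, 66.9, 69.4 and 69.7 CPM with MYCi975, 56.7, 66.3, 68.4 and 50.6 CPM with TMP195, 63.7, 57.1, 73.4 and 62.2 CPM with the combination and 37.5, 40.9, 44.0 and 39.7 CPM with vehicle. Every treated library of both genes lay above vehicle, with log2 fold changes of 1.54 ± 0.14, adjusted p = 6.34e-07 for WIPI1 and 0.65 ± 0.11, adjusted p = 0.000153 for ULK1 with the combination. UVRAG, a subunit of a phosphatidylinositol 3-kinase complex that acts on endosomes and autophagosomes, was at 40.3, 38.9, 37.5 and 57.6 CPM with MYCi975, 40.0, 41.8, 39.3 and 49.0 CPM with TMP195, 45.6, 53.4, 53.7 and 53.8 CPM with the combination and 29.9, 27.8, 29.1 and 32.2 CPM with vehicle, without overlap of treated and vehicle libraries (0.78 ± 0.12, adjusted p = 8.23e-05 with the combination). ATG7, the enzyme that activates LC3 for coupling, rose less, by 0.27 to 0.32 on the log2 scale. ATG9A, a lipid scramblase of the forming membrane, was lower with the combination at 19.6, 17.7, 22.3 and 15.9 CPM, against 31.4, 29.8, 27.4 and 25.2 CPM with vehicle (-0.61 ± 0.15, adjusted p = 0.00383), and it overlaps another annotated gene on its strand. ATG5, ATG16L1 and BECN1 were not called in any of the 12 comparisons with vehicle, with log2 fold changes in H1703 of -0.14 to 0.13.

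**Figure D2:**
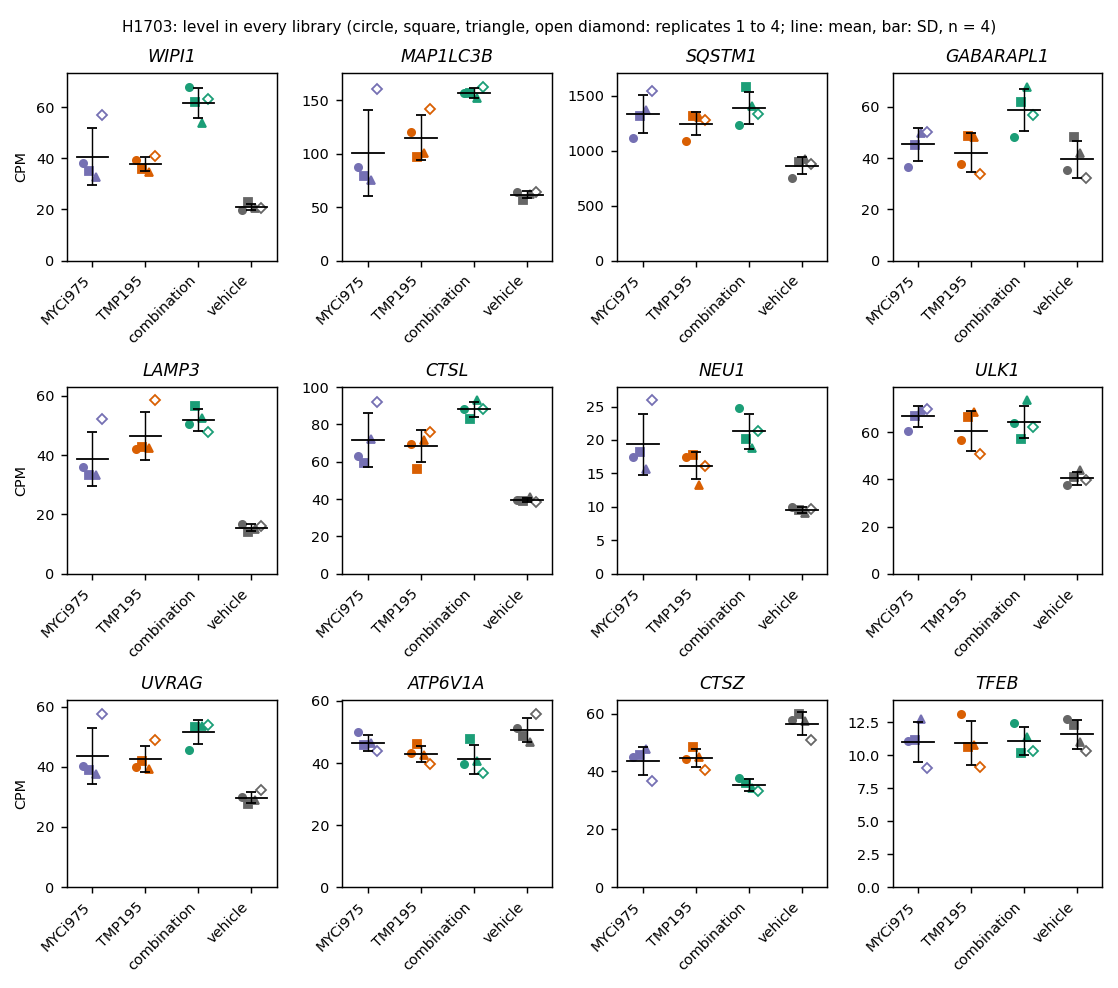
CPM of 12 members in every H1703 library (points, by treatment with vehicle at the right), with the group mean as a line and the SD as a bar (n = 4) and replicate 4 as an open diamond. The treated points of WIPI1, MAP1LC3B, SQSTM1, LAMP3, CTSL, NEU1, ULK1 and UVRAG all lie above vehicle, those of CTSZ all lie below it, and those of TFEB overlap it.

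In H460 the combination moved 13 members, 12 higher and 1 lower, against 15.7% of all genes (9.72% higher and 5.98% lower), and 8 were called without combination replicate 4. The set with counts for EEF1G holds vehicle replicates 1 and 2 but only replicate 1 of the combination, so set and treatment are not balanced in this comparison. MYCi975 and TMP195 each moved the same 2, MITF and WIPI1, against 1.09% and 1.13% of all genes. MITF was at 21.7, 21.5, 23.0 and 25.1 CPM with MYCi975, 22.5, 24.1, 29.1 and 20.7 CPM with TMP195, 24.2, 28.2, 33.7 and 25.5 CPM with the combination and 15.3, 13.4, 18.1 and 13.7 CPM with vehicle. WIPI1 was at 7.46, 6.69, 8.19 and 12.5 CPM with MYCi975, 10.0, 10.2, 9.46 and 10.6 CPM with TMP195, 13.2, 12.8, 13.7 and 18.8 CPM with the combination and 4.62, 4.57, 5.66 and 4.41 CPM with vehicle. All treated libraries of both genes lay above vehicle. MITF rose by 0.88 ± 0.13, adjusted p = 0.000472 with the combination, and WIPI1 by 1.60 ± 0.18, adjusted p = 8.76e-05. With MYCi975 the call of MITF (0.59 ± 0.13, adjusted p = 0.0443) held only without vehicle replicate 3, and that of WIPI1 (0.85 ± 0.18, adjusted p = 0.0351) was lost without MYCi975 replicate 1 or 4 or vehicle replicate 1, 2 or 4, with log2 fold changes of 0.54 to 0.69 and 0.63 to 0.95. With TMP195 the call of MITF (0.68 ± 0.13, adjusted p = 0.0226) was lost without TMP195 replicate 2 or 3 or vehicle replicate 1, 2 or 4 (0.58 to 0.78).

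The other members called with the combination in H460 were LAMP3, NPC1, CTSA, CTSB, CTSL, GAA, GUSB, PSAP, ATP6AP1 and ULK1, which rose, and ATP6V1A, which fell. CTSL was at 490.4, 492, 630.1 and 582 CPM with the combination and 308, 322, 404 and 363 CPM with vehicle (0.65 ± 0.14, adjusted p = 0.00584). ULK1 was at 58.1, 68.7, 53.3 and 40.4 CPM with the combination and 32.9, 36.3, 36.2 and 26.2 CPM with vehicle (0.75 ± 0.16, adjusted p = 0.00655). The groups of both genes do not overlap. LAMP3 was low in H460, at 2.05, 1.84, 0.763 and 4.96 CPM with the combination and 0.164, 0.226, 0.506 and 0.199 CPM with vehicle, with replicate 4 of the combination highest (3.12 ± 0.58, adjusted p = 0.00231). NPC1 was at 76.6, 77.2, 76.4 and 92.7 CPM with the combination and 55.1, 52.7, 59.0 and 70.8 CPM with vehicle (0.45 ± 0.11, adjusted p = 0.015), and it was 0.37 and not called without combination replicate 4. ATP6V1A was at 60.2, 59.2, 62.1 and 65.0 CPM with the combination and 75.8, 66.7, 82.6 and 112 CPM with vehicle (-0.45 ± 0.14, adjusted p = 0.0381), and vehicle replicate 4 is its highest library. Its call held in 1 of 8 fits that left out a library, that without vehicle replicate 2 (-0.54 to -0.29). SQSTM1, at 798 to 879.7 CPM with the combination and 815 to 876 CPM with vehicle, overlapped and was not called. CTSD and ATG9A are given no direction in H460. CTSD was at 62.5, 60.2, 16.7 and 11.9 CPM with vehicle, where replicates 1 and 2 are of the set with counts for EEF1G.

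In H838 edgeR called 1 member with the combination, WIPI1, against 3.24% of all genes. It was at 9.77, 7.12, 8.23 and 39.9 CPM with MYCi975, 12.5, 11.1, 9.19 and 11.0 CPM with TMP195, 17.4, 13.96, 16.7 and 35.2 CPM with the combination and 6.82, 5.74, 4.81 and 6.02 CPM with vehicle. All treated libraries lay above vehicle, and replicate 4 was far above the others with MYCi975 and with the combination. The rise with the combination (1.84 ± 0.45, adjusted p = 0.0342) was called in 1 of the 8 fits that left out a library, that without combination replicate 2, with log2 fold changes of 1.45 to 1.99. In the first library set alone WIPI1 rose by 1.46 ± 0.16 (adjusted p = 4.13e-05). With MYCi975 edgeR called 0 members, against 0% of all genes, with 5 members and 1541 genes at an unadjusted p under 0.05, and DESeq2 called 0 members and 35 genes. With TMP195 edgeR called 0 members, against 0.572% of all genes, with 2 members at an unadjusted p under 0.05, and DESeq2 called 0. TMP195 replicates 1 to 3 and vehicle replicates 1 to 3 of H838 are of different library sets, so that in these libraries TMP195 and the set cannot be told apart. LAMP3 reached 28.7 CPM in MYCi975 replicate 4, against 1.499 to 2.28 CPM in vehicle libraries, and the other 3 MYCi975 libraries were at 2.23, 2.47 and 3.67 CPM.

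In H1755 the combination moved 2 members, CTSD and GAA, against 1.69% of all genes, and TMP195 moved 1, CTSD, against 0.43%. These 2 are named after their values were seen. CTSD, the aspartic protease cathepsin D, was at 34.9, 36.1, 35.8 and 42.6 CPM with MYCi975, 37.6, 42.3, 41.6 and 40.8 CPM with TMP195, 46.9, 42.3, 41.8 and 47.2 CPM with the combination and 27.8, 26.0, 25.2 and 28.0 CPM with vehicle. Every treated library lay above vehicle, and the combination gave 0.73 ± 0.09, adjusted p = 0.000617. CTSD overlaps other annotated genes on its strand, and its counts can be split with them. GAA was at 17.6, 16.4, 16.6 and 16.7 CPM with the combination and 13.4, 12.5, 12.3 and 10.6 CPM with vehicle, without overlap (0.46 ± 0.10, adjusted p = 0.0254). With the combination the count was 1 when any 1 library of these groups other than vehicle replicate 1 was left out. With MYCi975 edgeR called 0 members, against 0.0643% of all genes, with 4 members at an unadjusted p under 0.05, and DESeq2 called 2.

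WIPI1 did not pass the threshold in H1755, with a log2 fold change of 1.13 ± 0.34 with the combination (adjusted p = 0.13). It was at 14.3, 13.1, 12.3 and 26.4 CPM with the combination and 7.02, 5.54, 7.30 and 10.2 CPM with vehicle, without overlap, and replicate 4 was the highest in both groups. With the replicate number as a block its log2 fold change was 1.11 ± 0.11 (adjusted p = 2.62e-08), and in the first library set alone it was 1.00 ± 0.16 (adjusted p = 0.000616). In H1755 same-numbered libraries deviate together (correlations of 0.407 to 0.875), and the blocked fit called 13 members with MYCi975, 9 with TMP195 and 14 with the combination, against 9.23%, 10.5% and 24.2% of all genes. Among the 14, 12 were higher, GABARAPL1 and SQSTM1 among them, and MITF and GLA were lower. In H460 the blocked fit called 6 members with MYCi975 and 7 with TMP195, against 6.52% and 5.15% of all genes, and in H838 it called 6 with the combination, against 14.9%. With a term for the library set in place of the replicate number, 5, 2 and 10 members were called with MYCi975, TMP195 and the combination in H1755, against 2.41%, 4.29% and 15% of all genes.

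**Figure D3:**
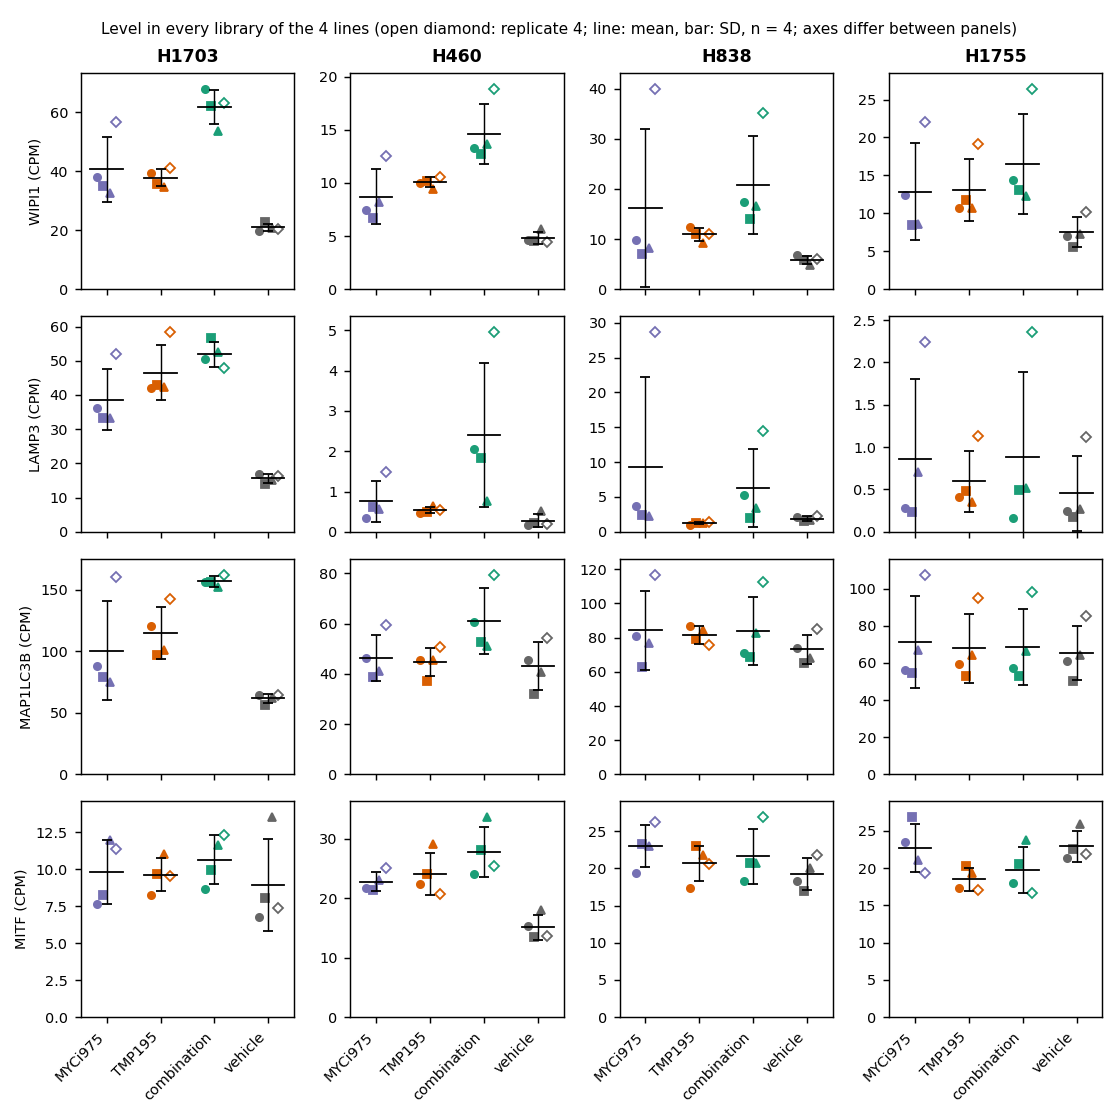
CPM of WIPI1, LAMP3, MAP1LC3B and MITF in every library of H1703, H460, H838 and H1755 (columns), by treatment with vehicle at the right, with group mean, SD (n = 4) and replicate 4 as an open diamond. WIPI1 with the combination lies above vehicle in all 4 lines, and MITF with each treatment lies above vehicle in H460. Replicate 4 is the highest MAP1LC3B library of its group with MYCi975 and with the combination in each line. It is also the highest with TMP195 in all lines but H838 and with vehicle in all lines but H1703.

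The combination was also set against each single agent. In H1703, WIPI1 was the 1 member called against MYCi975 (0.59 ± 0.13, adjusted p = 0.034), against 1.7% of all genes. Its 4 combination libraries, at 53.8 CPM or more, overlap those of MYCi975 by replicate 4, at 56.8 CPM. Without MYCi975 replicate 4 edgeR called 12 members, against 21.4% of all genes, and without any other library of these 2 groups it called 0. In the first library set alone 14 were called, against 17% of all genes. That set holds combination replicates 1 and 3 and MYCi975 replicates 1 to 3 of H1703. Among the 14 was MAP1LC3B, with 0.63 ± 0.18 over all libraries and 0.93 ± 0.09 in the first set (adjusted p of 0.0667 over all libraries). Against TMP195, 3 members were called in H1703, WIPI1 higher (0.69 ± 0.13, adjusted p = 0.0125) and CTSZ (-0.35 ± 0.09, adjusted p = 0.0377) and GLA (-0.41 ± 0.10, adjusted p = 0.031) lower, against 4.87% of all genes. The combination libraries of these 3 genes do not overlap those of TMP195. Without TMP195 replicate 1, 2 or 3 or combination replicate 3 or 4 the count was 1, and in the first set alone it was 11, against 11.1% of all genes.

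In H460, LAMP3 was the 1 member that differed between the combination and TMP195 (2.14 ± 0.55, adjusted p = 0.0452), against 3.91% of all genes. Its call was lost without any 1 TMP195 library and without combination replicate 1, 2 or 4, where the count was 0. Against MYCi975 in H460 edgeR called 0 members, against 1.06% of all genes, with 11 at an unadjusted p under 0.05, and DESeq2 called 3; without MYCi975 replicate 4 the count was 3. In H838 edgeR called 0 members against MYCi975 (0.0242% of all genes, 1 member at an unadjusted p under 0.05, 0 by DESeq2) and 0 against TMP195 (0.0436%, 5 and 1), and without MYCi975 replicate 4 it called 1 against MYCi975. In H1755 edgeR called 0 members against MYCi975 (0.0544% of all genes, 2 at an unadjusted p under 0.05, 0 by DESeq2) and 0 against TMP195 (0%, 1 and 0). Over all H1755 genes against TMP195, 415 had an unadjusted p under 0.05 and DESeq2 called 1. With the replicate block, 4 members were called against TMP195 in H838 (7.11% of all genes), and in H1755 4 against MYCi975 (3.19%) and 2 against TMP195 (1.36%). In H838, combination replicates 1 to 3 and TMP195 replicates 1 to 3 are of different library sets. The block cannot separate the set from the treatment in these libraries.

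The response of H1703 was then tested against the mean response of the other 3 lines in 1 fit of all 64 libraries. With the combination, 7 members differed, 6 with a more positive response in H1703 and 1 with a more negative one, against 9.21% of all genes (4.28% and 4.93%). UVRAG (0.73 ± 0.13, adjusted p = 0.000109), ATP6V1H (0.55 ± 0.10, adjusted p = 0.000286) and CTSZ (-0.55 ± 0.12, adjusted p = 0.000917) had the smallest adjusted p. UVRAG with the combination was at 45.6 to 53.8 CPM, against 27.8 to 32.2 CPM with vehicle in H1703. In the other lines it was at 16.2 to 19.6, 25.6 to 34.4 and 21.7 to 25.6 CPM with the combination, against 14.7 to 17.99, 26.0 to 33.3 and 21.3 to 24.7 CPM with vehicle, in H460, H838 and H1755. In these 3 lines the groups overlap, and in H1703 they do not. CTSZ had log2 fold changes of -0.70 in H1703, -0.11 in H1755, -0.26 in H838 and -0.02 in H460. Those of ATP6V1H were 0.44, 0.02, -0.24 and -0.04 in that order of lines.

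MAP1LC3B, NEU1, SQSTM1 and CTSL were the other 4. MAP1LC3B had the largest difference among the 7, 1.085 ± 0.25, adjusted p = 0.00264, with log2 fold changes with the combination of 1.33 in H1703, 0.50 in H460, 0.20 in H838 and 0.07 in H1755. SQSTM1 in H838 was at 236, 243, 239.7 and 244 CPM with the combination and 264, 282, 241 and 256 CPM with vehicle, and in H1755 at 552, 642, 638 and 1139.5 and 521, 594, 583 and 807 CPM, and both pairs overlap. The SQSTM1 response differed by 0.64 ± 0.19, adjusted p = 0.0194. WIPI1, which rose most with the combination in H1703 after LAMP3, differed by 0.04 ± 0.38 from the other lines, and ULK1 by 0.21 ± 0.19, and neither was called. Without replicate 1, or without replicate 3, of all groups the count was 4.

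With MYCi975, NEU1 was the 1 member whose response differed (0.87 ± 0.20, adjusted p = 0.0433), against 0.218% of all genes. NEU1 with MYCi975 was at 15.7 to 25.9 CPM, against 9.05 to 10.0 CPM with vehicle in H1703. In H460 it was at 4.41 to 6.42 CPM with MYCi975, against 3.80 to 6.10 CPM with vehicle. In H838 it was at 3.54 to 6.29 against 4.17 to 6.15 CPM, and both pairs overlap. In H1755 it was at 13.5 to 17.4 CPM with MYCi975, against 11.1 to 13.1 CPM with vehicle, without overlap, as in H1703. The count was 0 without replicate 1, 2 or 3 of all groups and 3 without replicate 4. With TMP195 edgeR called 0 members, against 0.685% of all genes, with 11 at an unadjusted p under 0.05. Without replicate 4 it called 9. The TMP195 and vehicle libraries of H838 that then remain are of different library sets. In that fit TMP195 and the set cannot be told apart in H838. DESeq2 was not run on this contrast. With a term for the library set, 9 members differed with MYCi975, 10 with TMP195 and 15 with the combination, against 5.09%, 7.4% and 20.3% of all genes.

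**Figure D4:**
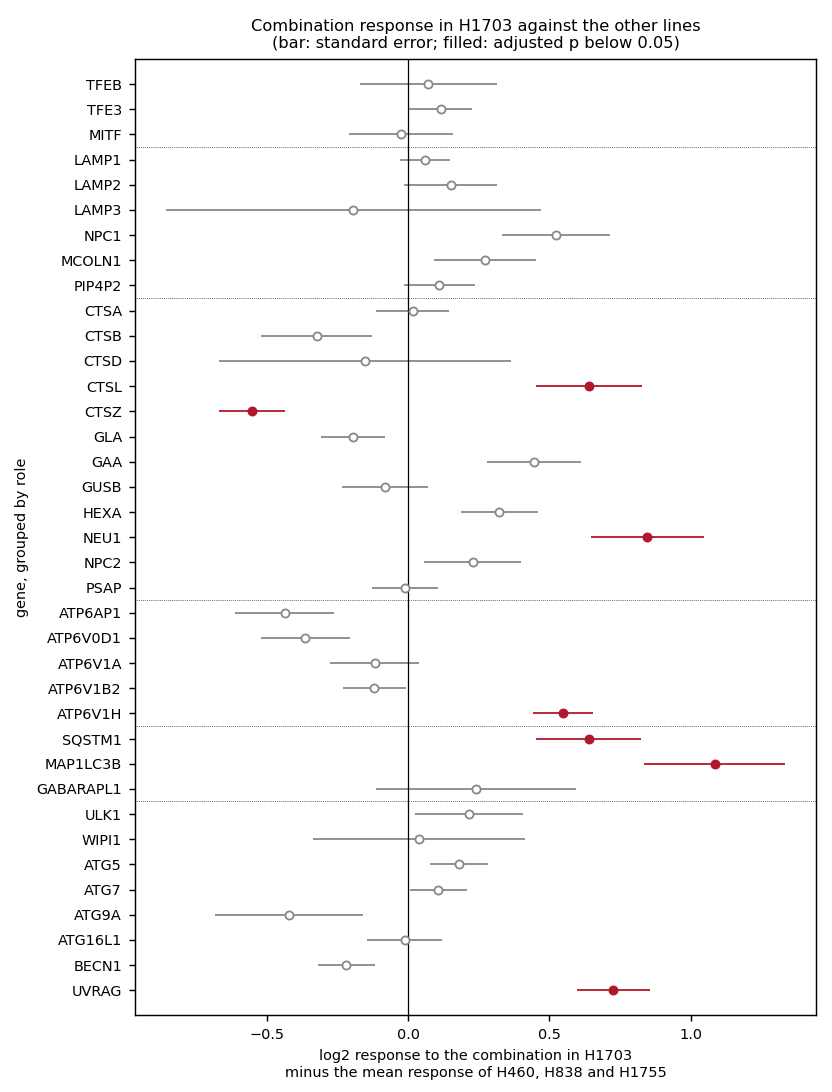
Difference of the log2 response to the combination between H1703 and the mean of H460, H838 and H1755 (x axis) for each of the 37 genes (y axis, grouped by role), with the standard error as a bar and filled red points where the adjusted p is below 0.05. MAP1LC3B, NEU1, UVRAG, CTSL, SQSTM1 and ATP6V1H lie at 0.548 or more, and CTSZ lies at -0.552.

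Levels without drug were compared between the lines. In vehicle libraries, 28 members differed between H1703 and the mean of the other lines, 16 higher and 12 lower, against 54.2% of all genes (28.7% higher and 25.5% lower). The libraries of H1703 lay above all 12 vehicle libraries of the other lines for 6 members and below all of them for 8, against 10.8% and 7.53% of all genes. The 6 above were TFEB, LAMP3, PSAP, ULK1, WIPI1 and ATG5. The 8 below were PIP4P2, CTSB, CTSL, CTSZ, ATP6V0D1, ATP6V1A, ATP6V1B2 and ATG16L1. Of the 37 members, 12 had their highest mean in H1703, 5 in H460, 8 in H838 and 12 in H1755.

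TFEB, at 12.7, 12.3, 11.0 and 10.4 CPM in H1703 vehicle libraries, was highest there (1.95 ± 0.16, adjusted p = 1.49e-15). It was at 3.85, 4.12, 4.46 and 3.06 CPM in H460, 1.45, 2.48, 1.37 and 1.39 CPM in H838 and 5.77, 3.43, 4.39 and 3.07 CPM in H1755. H1755 and H460 overlap, and H838 was below both. MITF went the other way, at 6.79, 8.07, 13.5 and 7.36 CPM in H1703, 15.3, 13.4, 18.1 and 13.7 CPM in H460, 18.3, 16.9, 20.1 and 21.8 CPM in H838 and 21.3, 22.5, 25.9 and 21.9 CPM in H1755 (-1.076 ± 0.14, adjusted p = 2.23e-09), and each neighbouring pair in that order overlaps. TFE3 ranked H460, H1755, H1703 and H838 from high to low with no overlap between neighbours, at means of 44.1 ± 4.62, 91.7 ± 7.34, 15.0 ± 2.31 and 74.9 ± 6.19 CPM in H1703, H460, H838 and H1755 (SD, n = 4), and its difference was not called. Per kilobase of exon in H1703 vehicle libraries, the level of TFE3 averaged 10.3 CPM, that of TFEB 2.05 CPM and that of MITF 1.24 CPM, while SQSTM1 averaged 113 CPM and PSAP 143 CPM.

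LAMP3 had the widest range of levels between lines among the members. It was at 16.9, 14.1, 15.2 and 16.2 CPM in H1703, 2.11, 1.499, 1.77 and 2.28 CPM in H838, 0.251, 0.181, 0.264 and 1.12 CPM in H1755 and 0.164, 0.226, 0.506 and 0.199 CPM in H460, where the last 2 overlap, and its highest mean was 57.0 times its lowest. WIPI1 was at 19.7 to 22.8 CPM in H1703 and at 4.41 to 5.66, 4.81 to 6.82 and 5.54 to 10.2 CPM in H460, H838 and H1755, which overlap among themselves (1.81 ± 0.24, adjusted p = 8.5e-09). CTSL was lowest in H1703, at 38.2 to 41.0 CPM, against 308 to 404 CPM in H460, 74.1 to 109 CPM in H838 and 88.8 to 138 CPM in H1755. The combination level of CTSL in H1703, 82.8 to 92.9 CPM, lay within the vehicle range of H838 and below that of H460. Of the 5 V-ATPase genes, 3 were called and all 3 were lower in H1703, with log2 differences of -1.12 to -0.85. Over all genes 54.2% were called and 25.5% were lower. None of the other V-ATPase subunits described below had its H1703 vehicle libraries below all those of the other lines. GABARAPL1 ranked H838, H1703, H460 and H1755, at 54.9 to 85.6, 32.2 to 48.3, 9.58 to 12.2 and 7.35 to 17.2 CPM, and H460 and H1755 overlap.

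**Figure D5:**
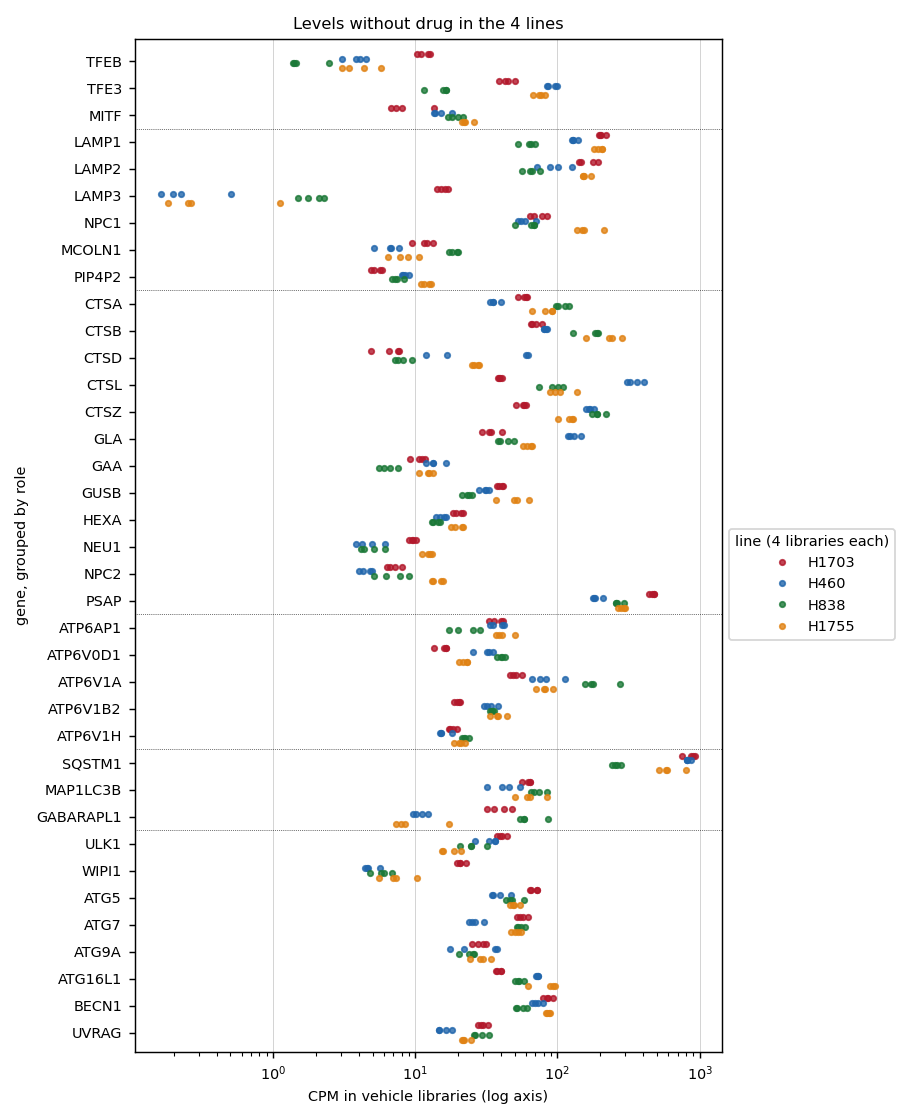
CPM of the 37 genes (down the page, grouped by role) in the 4 vehicle libraries of H1703, H460, H838 and H1755 (colours) on a log axis. LAMP3, TFEB and WIPI1 lie to the right in H1703, CTSL, CTSZ and ATP6V1A lie to the left in it, and the 4 H460 libraries of CTSD and of ATG9A fall into 2 pairs, with replicates 1 and 2 above replicates 3 and 4.

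Other genes of the pathway, taken from 7 lists of lysosomal and autophagy genes that hold none of the members, were counted with the combination in H1703, where 38.3% of all genes were called. Of 10 autophagy receptors 7 were higher and 0 lower, with a median log2 fold change of 0.408. RETREG1, a receptor for endoplasmic reticulum in autophagy, was at 55.6, 68.0, 61.2 and 73.8 CPM with the combination and 22.8, 24.0, 24.8 and 34.4 CPM with vehicle (1.27 ± 0.21, adjusted p = 0.000192), and CCPG1, another such receptor, at 55.5, 68.8, 52.6 and 52.6 and 25.0, 23.5, 22.6 and 25.5 CPM (1.23 ± 0.16, adjusted p = 1.77e-05). Neither gene's groups overlap. Of 19 genes of nutrient sensing and TFEB control, of which 18 were tested, 7 were higher and 3 lower, with a median of 0.129. RRAGD, a Rag GTPase that recruits mTORC1 to the lysosome, was at 5.15, 6.20, 4.54 and 7.04 CPM with the combination and 0.784, 1.20, 0.877 and 1.32 CPM with vehicle (2.44 ± 0.35, adjusted p = 5e-05), and its relative RRAGC at 40.2, 36.8, 38.8 and 35.5 and 20.8, 17.5, 17.8 and 17.4 CPM (1.02 ± 0.11, adjusted p = 4.4e-06). The groups of both genes do not overlap.

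Of 33 other hydrolases and luminal proteins 12 were higher and 3 lower, with a median of 0.03, and GALC, which degrades sphingolipids, was higher (0.73 ± 0.10, adjusted p = 4.26e-05). Of 20 other membrane proteins 6 were higher and 2 lower (median 0.127). The chloride-proton exchanger CLCN7 was higher (0.58 ± 0.07, adjusted p = 1.55e-05) and LAPTM4B lower (-1.02 ± 0.17, adjusted p = 0.000171). Of 13 genes of sorting to the lysosome 4 were higher and 1 lower (median 0.067). IGF2R, the receptor that carries mannose 6-phosphate-tagged hydrolases, was higher (0.94 ± 0.10, adjusted p = 2.41e-06) and the sorting receptor SORT1 lower (-0.52 ± 0.09, adjusted p = 0.000164). Of 30 other genes of the core autophagy machinery, 29 of them tested, 7 were higher and 4 lower (median 0.057), with ULK2 higher (0.48 ± 0.09, adjusted p = 0.000296) and PIK3R4 lower (-0.38 ± 0.07, adjusted p = 0.000611). Of 12 other V-ATPase subunits, 11 of them tested, 2 were higher and 2 lower (median -0.121), with ATP6V1E1 higher (0.31 ± 0.07, adjusted p = 0.0017) and ATP6V0E1 lower (-0.65 ± 0.17, adjusted p = 0.00513). With MYCi975 in H1703, against 10.2% of all genes, 10 of the 33 hydrolases, 4 of the 10 receptors, 5 of the 18 nutrient-sensing genes, 4 of the 20 membrane proteins, 2 of the 13 sorting genes and 1 of the 11 V-ATPase subunits were higher and none of these lists had a lower gene. Of the 29 core autophagy genes 2 were higher and 1 lower. With TMP195, against 9.65% of all genes, the same lists had 5, 3, 4, 3, 2 and 0 higher genes and none lower, and of the 29 core autophagy genes 1 was higher and 1 lower. Mesenchymal markers summed to 1180 to 1880 CPM in H1703 libraries, against 2860 to 5070 in H460, 546 to 693 in H838 and 2790 to 3610 CPM in H1755. In vehicle libraries FN1 and SNAI2 of H1703 lay below all those of the other lines, and no mesenchymal marker lay above all of them. With the combination in H1703, ZEB1 (0.69 ± 0.12, adjusted p = 0.000176) and FN1 (0.44 ± 0.10, adjusted p = 0.00166), 2 of the 4 tested, were higher. Their part in the members' changes was not tested.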

How the data were processed

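Total RNA libraries (a stranded SMARTer kit, per the labels' protocols) were trimmed with Trimmomatic, aligned with STAR to GRCh38 and counted with featureCounts, per the submitters' processing notes. Versions, annotation and strand setting are not given in the sources used here. The deposited table holds raw counts per gene for all 64 libraries, and 0 columns were left unmapped. IDs were given symbols through GENCODE 29 and RefSeq, and 1 member was matched by a RefSeq synonym. By GENCODE 29, 14 members overlap another gene on the same strand and 18 on the other strand, and reads of such pairs could be split or lost.

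From the counts, edgeR 4.0.16 in R 4.3.3 gave TMM-scaled CPM and quasi-likelihood tests after its filter on low counts. Each line was fitted alone with 4 group means (16 libraries), and H1703 was set against the mean of the other lines in 1 fit with 16 group means (64 libraries). The p-values were Benjamini-Hochberg adjusted over all genes tested, with a threshold of 0.05. SE was taken from each fold change and its F statistic, as the size of the change over the root of F. Levels carry SD over 4 libraries. The fits were tested on simulated counts, drawn independently with a fixed spread. These had no library sets or pairing of replicates, so those features were not covered. Figures were made with Python 3.11.15, pandas 2.3.3 and matplotlib 3.10.9.

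The members and lists were chosen with earlier results of these data known. Values in every library were given for TFEB, TFE3, MITF, SQSTM1, MAP1LC3B, GABARAPL1 and up to 3 members per role with the smallest adjusted p, and for up to 2 genes per other list. Further members were named after their values were seen. The rule also asked for proteins, which are not shown. A gene that the rule would name in the other lists is not reported here.

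Replicate numbers pair libraries where every same-number correlation of deviations exceeds 0.1. This held in H1755 for all comparisons (0.407 to 0.875), in H460 and H1703 for each single agent against vehicle, and in H838 for TMP195 and the combination against vehicle and for the combination against TMP195. Alternatives were DESeq2 1.42.0, other scalings, no filter, the replicate block, a library set term, the first library set alone, 1 fit of all libraries, and leaving out each replicate. Leaving out the TMP195 library of H838 with another line's tag was added after seeing the data.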

Additional observations from a re-analysis of the deposited data

Results flagged for a closer look

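A library was singled out where it stood far from the other 3 of its group. Of 288 groups of the 18 members described by library, 32 held such a library (11.1%), where chance gives about 1 in 20, and in 26 of the 32 it was replicate 4, which is a library set of its own whose part in these values was not tested.

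In H1755, GABARAPL1 in replicate 4 was at 25.9 CPM with MYCi975, 24.3 CPM with TMP195, 28.6 CPM with the combination and 17.2 CPM with vehicle, and the nearest other libraries were at 8.90, 10.3, 11.3 and 8.53 CPM. LAMP3 in replicate 4 was at 1.14 CPM with TMP195, 2.36 CPM with the combination and 1.12 CPM with vehicle, against 0.482, 0.515 and 0.264 CPM in the nearest. WIPI1 in replicate 4 was at 19.2 CPM with TMP195 and 26.4 CPM with the combination, against 11.7 and 14.3 CPM in the nearest. With TMP195, NPC1 (198.9 CPM against 140.5 in the nearest) and ATP6V1A (98.5 against 73.9) were also high in replicate 4. ULK1 with MYCi975 (32.2 CPM against 19.7) and SQSTM1 with the combination (1140.0 CPM against 642) were high there too. TFE3 with the combination was low in replicate 4 (60.2 CPM against 73.8), and ATP6V1H with the combination was low in replicate 3 (19.7 CPM against 21.3).

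In H1703 with MYCi975, replicate 4 was high for LAMP3 (52.1 CPM against 36.1 in the nearest), MAP1LC3B (159.9 CPM against 87.8) and UVRAG (57.6 CPM against 40.3). With TMP195, LAMP3 was high in replicate 4 (58.4 CPM against 42.9) and SQSTM1 low in replicate 1 (1087 CPM against 1279). UVRAG with the combination was low in replicate 1 (45.6 CPM against 53.4), and ATP6V0D1 with vehicle was low in replicate 4 (13.6 CPM against 16.01).

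In H460 with the combination, NPC1 (92.7 CPM against 77.2) and WIPI1 (18.8 CPM against 13.7) were high in replicate 4. In H460 with vehicle, ATP6V1H (18.2 CPM against 15.2) and SQSTM1 (876 CPM against 818) were high in replicate 3. In H838, LAMP3 (28.7 CPM against 3.67) and WIPI1 (39.9 CPM against 9.77) with MYCi975 and WIPI1 with the combination (35.2 CPM against 17.4) were high in replicate 4. CTSL with TMP195 was low in replicate 4 (82.1 CPM against 112), GABARAPL1 with vehicle was high in replicate 4 (85.6 CPM against 58.4), and TFEB with vehicle was high in replicate 2 (2.48 CPM against 1.45).

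The other values singled out are responses that differed between H1703 and the mean of the other lines by the test of that difference. For NEU1 with MYCi975 the difference of log2 fold changes was 0.87. With the combination it was 0.73 for UVRAG, 0.55 for ATP6V1H, -0.55 for CTSZ, 1.085 for MAP1LC3B, 0.85 for NEU1, 0.64 for SQSTM1 and 0.64 for CTSL.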

How the results depend on the processing

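The 46 fold changes of members described by library kept their direction under every alternative run, and 28 of 368 alternatives, and 56 of 368 fits without 1 library, lost the call. DESeq2, the replicate block and the library set term lost none of the 46. The first library set alone lost 8 and 1 fit of all 64 libraries lost 12. The cause was not tested. Of 354 alternatives for the 24 counts of members called, 231 stayed within 1.5 times. Where a group has 1 library left, it is assumed to vary like the other groups. The first set alone gave no value for TMP195 in H838. The library without a matching tag moved no count by over 1.5 times when left out. Outside H1703, LAMP3 was at 2.28 CPM or less in vehicle libraries, so its fold changes there rest on low counts.

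The counts that moved were these. With MYCi975 against vehicle, the count in H460 was 0 in the fit of all libraries, in the first set and without the filter, 7 with the set term and 6 with the replicate block (0 to 2 leaving out 1 library); in H838 it was 1 in the fit of all libraries; in H1703 it was 11 to 16 leaving out 1 library; and in H1755 it was 2 by DESeq2, 1 in the first set, 5 with the set term and 13 with the block. With TMP195 against vehicle, H460 had 1 in the fit of all libraries, 4 by DESeq2, 0 in the first set, 8 with the set term and 7 with the block (1 to 2). H1703 had 8 in the fit of all libraries, and H1755 had 0 there, 2 in the first set, 2 with the set term and 9 with the block. With the combination against vehicle, H460 had 3 in the first set, 21 with the set term, 8 without the filter and 21 with the block (8 to 12). H838 had 3 in the fit of all libraries, 2 by DESeq2, 2 in the first set, 10 with the set term and 6 with the block (0 to 1). H1755 had 0 in the fit of all libraries, 4 by DESeq2, 6 in the first set, 10 with the set term, 1 without the filter and 14 with the block (1 to 2).

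For the combination against MYCi975, H460 had 3 by DESeq2, 1 in the first set, 9 with the set term and 9 with the block (0 to 3). H838 had 1 in the first set (0 to 1), H1703 had 0 in the fit of all libraries, 4 by DESeq2, 14 in the first set, 11 with the set term, 3 without the filter and 14 with the block (0 to 12), and H1755 had 4 with the block. Against TMP195, H460 had 4 by DESeq2, 0 in the first set, 18 with the set term, 0 without the filter and 17 with the block (0 to 1). H838 had 1 in the fit of all libraries, 1 by DESeq2, 1 without the filter and 4 with the block. H1703 had 1 in the fit of all libraries, 6 by DESeq2, 11 in the first set, 10 with the set term and 11 with the block (1 to 3), and H1755 had 2 with the block. For the response of H1703 against the other lines, MYCi975 had 9 with the set term and 0 without the filter (0 to 3), TMP195 had 10 with the set term (0 to 9), and the combination had 15 with the set term (4 to 10). Where numbers do not pair the libraries, as for the combination in H460 (lowest correlation -0.72) and H1703 (-0.09), the block counts only show how the fit moves. The block took away no call of the 46.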
